A study of Danio rerio with 12 samples.

Results

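The 10 genes described here, pvalb1, pvalb2, pvalb3, pvalb4, mylpfa, tnnt3b, ckma, ckmb, atp2a1 and mylk4a, are 10 of the 22736 genes listed for zebrafish heart tissue, and most of them are known from fast skeletal muscle. They were chosen by symbol, when the high values of pvalb2 and mylk4a in injured myd88+/+ tissues at 1 h post cryoinjury (hpci) were already known, and the question was whether other fast muscle genes were high in the same libraries. RNA was sequenced in bulk from adult fish of the AB strain, as homozygous myd88-/- mutants (allele hu3568, a loss of the adaptor protein MyD88) and their myd88+/+ siblings. From each genotype came untouched (UT) ventricles without cryoinjury and, at 1 and 24 hpci, injured tissues, with 2 libraries per condition, each a pool of 3 ventricles or 3 injured tissues. The hearts were reached through an incision in the chest, and a cold probe was applied to the ventricular apex. The study used both sexes. A UT library held whole ventricles and an injured library the injured tissue only, so that injury and the part of the heart sampled cannot be told apart in any comparison with UT.

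Fast-twitch skeletal muscle fibers contract and relax quickly. Parvalbumins bind calcium in their cytosol and speed relaxation, the calcium pump encoded by atp2a1 (SERCA1) returns calcium to the sarcoplasmic reticulum, and the fast isoforms of the myosin light chains and of troponin T belong to the sarcomere. Muscle creatine kinase regenerates ATP from phosphocreatine in skeletal and in cardiac muscle, whereas cardiomyocytes take up calcium mainly through another pump, SERCA2.

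Values are the deposited normalized counts, which are read counts scaled to a common depth and rounded to whole numbers. Library totals ranged from 2998177 to 3747891 normalized counts. The estimated depth was lowest in replicate 1 of myd88+/+ at 24 hpci, with 1476129 reads, where 3 reads were worth 7.62 normalized counts. The other 11 libraries had an estimated 3035695 to 4121336 reads, and 3 reads were worth 2.18 to 3.19 normalized counts in them. The mutated gene itself, myd88, had 32 and 37 normalized counts in UT myd88-/- ventricles against 63 and 56 in UT myd88+/+ ventricles, 199 and 210 against 200 and 171 at 1 hpci, and 43 and 66 against 79 and 113 at 24 hpci, so that its transcript was detected in every library. Markers of ventricular cardiomyocytes, a list of 17 genes of which 15 were listed and tested, were present throughout, with a summed level of 10036 to 25460 normalized counts per library.

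pvalb2 (ENSDARG00000002768, chr12:17710425-17712498 of danRer11, minus strand), a parvalbumin, was high in the injured myd88+/+ tissues at 1 hpci and close to 0 elsewhere. It had 2 and 8 normalized counts in UT myd88-/- ventricles against 1 and 1 in UT myd88+/+ ventricles, 4 and 1 in injured myd88-/- tissues at 1 hpci against 128 and 156 in injured myd88+/+ tissues at 1 hpci, and 1 and 0 in injured myd88-/- tissues at 24 hpci against 0 and 0 in injured myd88+/+ tissues at 24 hpci. Both myd88+/+ libraries at 1 hpci lay far above the other 10 libraries. Replicate 1 had 0.821 times the level of replicate 2 (95% exact binomial interval 0.650 to 1.04 on the estimated reads), so that these libraries did not differ beyond counting error in pvalb2. Reads were not tagged with molecular identifiers, and removing duplicates without them caps short, highly expressed genes. All such intervals cover counting error only, and the part of this cap was not tested. In bulk tissue, a lower share of a cell type and less RNA per cell cannot be told apart.

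pvalb3 (ENSDARG00000022817, chr12:17705218-17707517, minus strand), its neighbor with 2907 bases between the genes and no other listed gene there, had a similar order of libraries at higher background levels. It had 22 and 45 normalized counts in UT myd88-/- ventricles against 15 and 15 in UT myd88+/+ ventricles, 42 and 30 against 154 and 238 at 1 hpci, and 6 and 5 against 3 and 5 at 24 hpci. The genotypes did not overlap at 1 hpci, and the 4 libraries at 24 hpci were the lowest. In uninjured ventricles pvalb3 was above the worth of 3 reads in all 4 libraries, pvalb2 in 1 of them, and pvalb1 and pvalb4 in none.

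pvalb1 (ENSDARG00000037789, chr3:61193890-61205711, minus strand) and pvalb4 (ENSDARG00000024433, chr3:61174750-61185746, minus strand) are neighbors on another chromosome, with 8143 bases between them. pvalb1 had 3 and 5 normalized counts in injured myd88-/- tissues at 1 hpci against 32 and 88 in injured myd88+/+ tissues at 1 hpci, and 0 to 3 in the other 8 libraries. pvalb4 had 2 and 3 against 18 and 290 at 1 hpci, and 0 to 3 in the other 8 libraries. For both genes the myd88+/+ libraries at 1 hpci were the highest, but replicate 1 reached 0.364 times the level of replicate 2 for pvalb1 (0.238 to 0.549) and 0.0621 times for pvalb4 (0.0368 to 0.101). The span of pvalb4 overlaps CR352263.1 on the other strand, and reads shared by near-identical paralogs were removed before counting, so that the split among the parvalbumins is uncertain.

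The sarcomere genes were high chiefly in 1 library. mylpfa (ENSDARG00000053254, chr3:32813048-32818607, minus strand), the regulatory light chain of fast myosin, had 2 and 11 normalized counts in injured myd88-/- tissues at 1 hpci against 40 and 932 in injured myd88+/+ tissues at 1 hpci, and 0 to 6 in the other 8 libraries. tnnt3b (ENSDARG00000068457, chr7:39444843-39460363, plus strand), the fast troponin T that ties the troponin complex to tropomyosin, had 8 and 10 against 25 and 1009 at 1 hpci, and 2 to 13 elsewhere. In both genes replicate 2 of myd88+/+ stood far above every other library. Replicate 1 was above the other 10 libraries as well, at 0.0429 times (0.0309 to 0.0595) and 0.0248 times (0.0162 to 0.0372) the level of replicate 2.

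atp2a1 (ENSDARG00000020574, chr3:26081343-26157066, plus strand), the fast muscle calcium pump, went further in this direction. It had 53 and 82 normalized counts in UT myd88-/- ventricles against 101 and 90 in UT myd88+/+ ventricles, 40 and 29 against 69 and 1890 at 1 hpci, and 7 and 3 against 3 and 8 at 24 hpci. Replicate 1 of myd88+/+ at 1 hpci lay inside the range of the UT ventricles, and replicate 2 lay far above every other library. The annotated span of atp2a1 holds hsp70.1, hsp70.2, hsp70.3 and zgc:162612, and reads that overlap several genes were not counted by the authors.

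ckmb (ENSDARG00000040565, chr15:23643718-23647078, minus strand), a muscle creatine kinase, had 212 and 215 normalized counts in UT myd88-/- ventricles against 158 and 195 in UT myd88+/+ ventricles, 254 and 182 against 293 and 886 at 1 hpci, and 58 and 25 against 69 and 51 at 24 hpci. Its replicate 2 of myd88+/+ at 1 hpci was the highest library, and replicate 1 was 0.331 times as high (0.290 to 0.378) and exceeded the highest of the other 10 libraries, 254, by little. ckma (ENSDARG00000035327, chr5:36832079-36837846, minus strand), the other muscle creatine kinase, was the exception among the 10 genes. It had 1171 and 1338 in UT myd88-/- ventricles against 1383 and 1319 in UT myd88+/+ ventricles, 1244 and 1295 against 1424 and 1130 at 1 hpci, and 788 and 756 against 2140 and 807 at 24 hpci. Neither myd88+/+ library at 1 hpci stood out, and the highest value lay in replicate 1 of myd88+/+ at 24 hpci. That library had the lowest depth, and acta1b, eno3 and krt8, other genes with high normalized counts, were also at their highest of the 12 libraries there (1838, 1840 and 3632). The part of depth in these values was not tested. Removal of duplicate reads caps short, highly expressed genes, and its part in the lack of a peak in ckma was not tested either.

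mylk4a (ENSDARG00000091260, chr2:394166-424925, plus strand), a kinase of the myosin light chain kinase family, had the replicates in the opposite order. It had 88 and 69 normalized counts in UT myd88-/- ventricles against 53 and 82 in UT myd88+/+ ventricles, 17 and 8 against 772 and 272 at 1 hpci, and 14 and 3 against 3 and 2 at 24 hpci. Replicate 1 of myd88+/+ at 1 hpci was 2.84 times as high as replicate 2 (2.49 to 3.24), and both lay above the other 10 libraries. The myd88-/- tissues at 1 hpci lay below all 4 UT libraries, and the levels at 24 hpci overlapped them or lay lower.

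**Figure D1:**
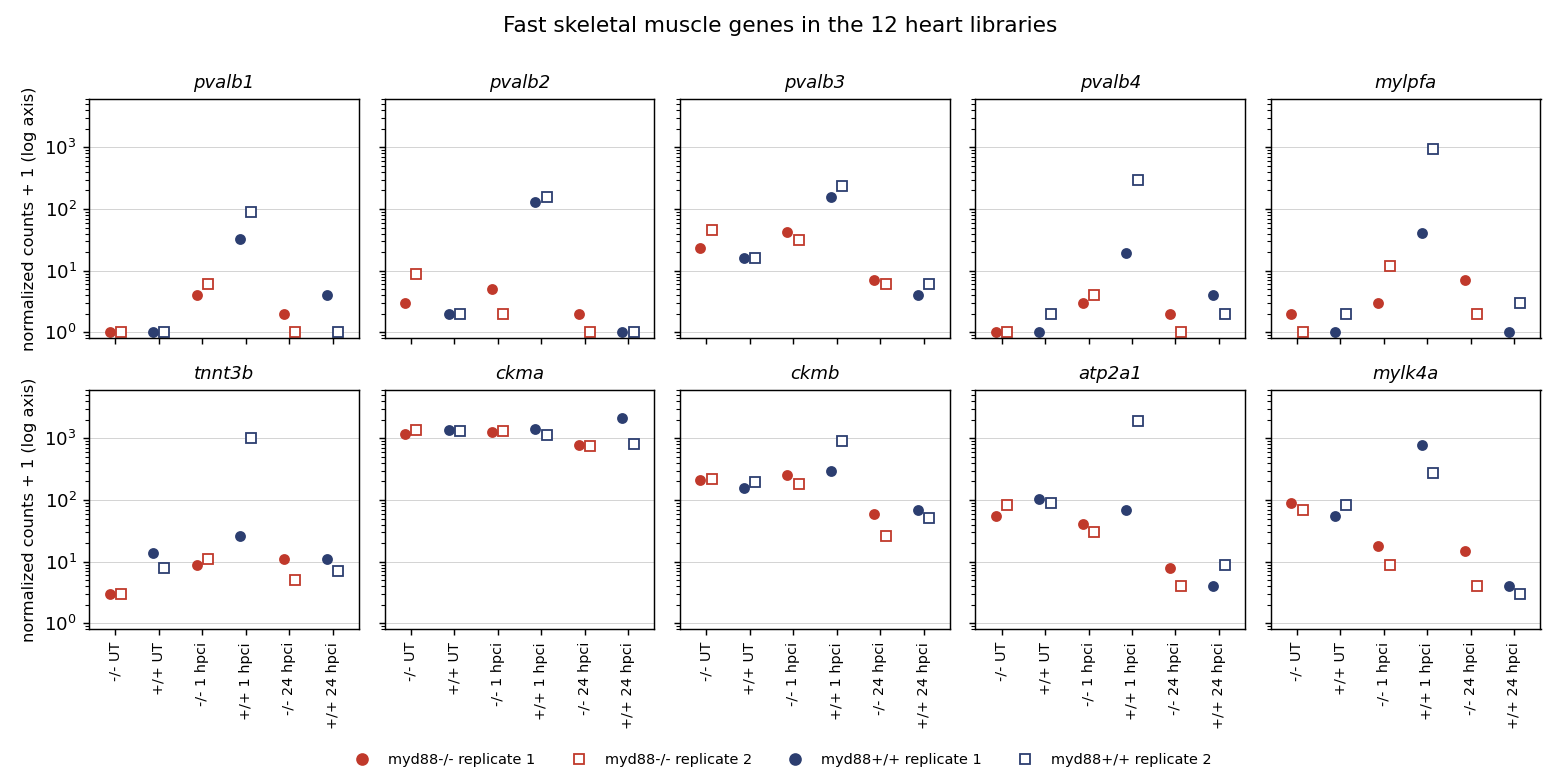
Normalized counts plus 1 (log axis) of each gene in the 12 libraries, by genotype and state; filled circles are replicate 1 and open squares replicate 2, red for myd88-/- and blue for myd88+/+. pvalb2 lies at 128 and 156 in myd88+/+ at 1 hpci, while tnnt3b, mylpfa and atp2a1 are far higher in replicate 2 than in replicate 1, mylk4a is higher in replicate 1, and ckma shows no such peak.

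Both myd88+/+ libraries at 1 hpci exceeded the other 10 libraries for 8 of the 10 genes, all but ckma and atp2a1. Over all 16643 genes with a mean above 5, this held for 1.89%. These libraries chose the genes, so the count is a description and carries no test. Replicate 1 alone was above the other 10 libraries for 8 genes (11.5% of all genes) and replicate 2 alone for 9 genes (8.7% of all genes). All 10 genes passed the filter on low values, but pvalb1, pvalb2, pvalb4 and mylpfa passed only through the myd88+/+ libraries at 1 hpci, and 6 genes passed without them.

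On the log2(value + 1) scale, the difference of myd88-/- from myd88+/+ at 1 hpci was -5.17 for mylk4a, and -4.42 or -5.92 when replicate 1 or replicate 2 of myd88+/+ was left out. For pvalb3 it was -2.40, with -2.71 and -2.09 after the same omissions. atp2a1 had -3.38, with -5.75 without replicate 1 and -0.997 without replicate 2, and tnnt3b had -4.03, with -6.67 and -1.39. For ckmb the difference was -1.24, with -2.04 and -0.44. The size for atp2a1, tnnt3b and ckmb therefore rested on replicate 2, whereas mylk4a and pvalb3 were lower in myd88-/- against either library. For the other parvalbumins and mylpfa no fold change is given, since the myd88-/- values were at or near the worth of a few reads. Across all genes, 0.12% were called in this comparison, 8.73% in myd88+/+ at 1 hpci against UT and 34.8% in myd88+/+ at 24 against 1 hpci. All of these comparisons use the libraries that chose the genes.

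The libraries were then compared over all genes, by counting for each library the genes whose value, after adding 5, was at least 4-fold above the highest of the other 11 libraries. Replicate 2 of myd88+/+ at 1 hpci held 130 such genes, 0.781% of the 16643. The filter on low values used all 12 libraries, and 161 genes passed it only through this library, so that the filter in part sets this count. Of the 16531 genes that passed without it, 47 stood apart there. Replicate 1 of myd88+/+ held 20, and the myd88-/- libraries at 1 hpci held 3 in replicate 1 and 18 in replicate 2. The remaining 8 libraries held 0 or 1.

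**Figure D2:**
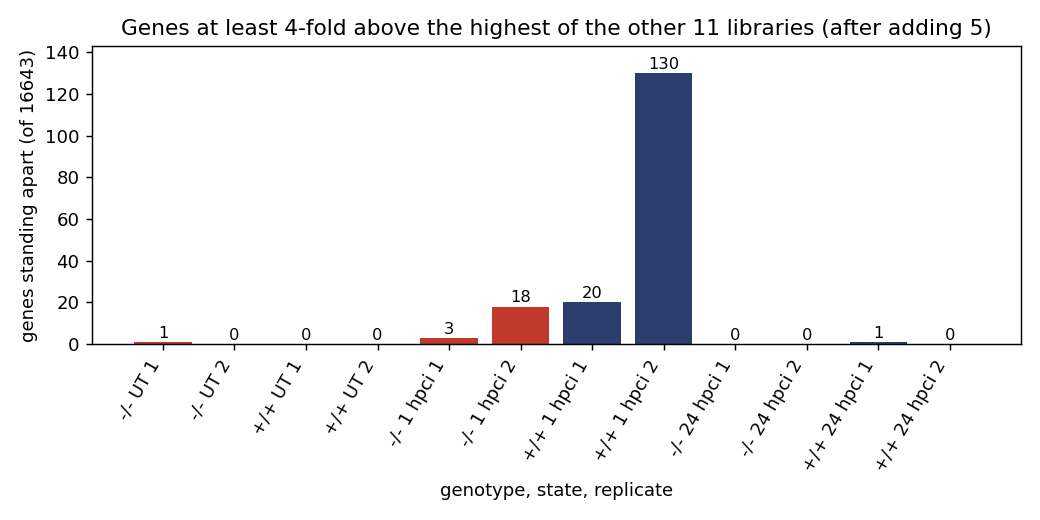
Number of genes (of 16643) that were at least 4-fold above the highest of the other 11 libraries after adding 5, for each library, red for myd88-/- and blue for myd88+/+. Replicate 2 of myd88+/+ at 1 hpci has 130 such genes, and no other library has more than 20. Of the genes that passed the filter on low values without this replicate 2, 47 stood apart in it.

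Among the 130 genes were atp2a1, tnnt3b, mylpfa and pvalb4, but neither pvalb2, pvalb3 nor mylk4a. A list of 32 other fast skeletal muscle sarcomere genes had 27 tested genes, and 21 of them were among the 130. Of these 27 genes, 14 passed the filter on low values only through replicate 2 itself, so that the filter in part sets this count. Of the 13 that passed without it, 7 were among the 130, against 47 of 16531 over all genes. Fast myosin heavy chain genes had 31 and 1815 (myhz2) and 14 and 1630 (myhb) normalized counts in replicates 1 and 2 of myd88+/+ at 1 hpci. neb, the giant thin filament protein nebulin, had 10 and 1492, and actn3b, the fast isoform of the Z-disc protein actinin, had 24 and 1455. In the other 10 libraries these genes had at most 1 (myhz2), 21 (myhb), 17 (neb) and 17 (actn3b). Myosin heavy chain genes lie in clusters of close copies, so that their split is uncertain. After adding 1, the median ratio of replicate 2 to replicate 1 was 11.3 over the 13 genes that passed the filter without replicate 2 (58.2 over all 27), against 1.00 over all tested genes.

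The genes of this list with the highest means behaved otherwise. acta1b and acta1a, skeletal actin genes, had 1433 and 1124 and 1157 and 896 normalized counts in replicates 1 and 2, and myom2a, an M-band protein, had 2692 and 2194. Replicate 2 was below replicate 1 for each of them. The part of duplicate removal, which caps short, highly expressed genes, was not tested. In UT ventricles they had 751 to 2540. myom1a was intermediate, with 395 and 714 in the same libraries and 203 to 362 in UT ventricles.

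Some slow fiber and muscle precursor genes were high in the same library, and others were not. Of 9 tested slow skeletal muscle genes, 5 were among the 130, but 3 of the 9 passed the filter only through replicate 2, and of the 6 that passed without it 2 were among the 130. smyhc2, a slow myosin heavy chain, had 1 and 1076 normalized counts in replicates 1 and 2 of myd88+/+ at 1 hpci, and at most 4 in any other library. mybpc1, a slow myosin-binding protein, had 194 and 843, and tpm3, a tropomyosin, had 1063 and 1375. The order was the opposite for tnnc1b, a troponin C, with 644 and 400, and for tnni1c, a troponin I, with 171 and 98. Of the 9 listed myogenic regulators 5 were tested, 2 of these only through replicate 2, and 4 were among the 130: myod1 with 24 and 228, myog, which like myod1 is a transcription factor of muscle differentiation, with 3 and 216, mymk, a membrane protein needed for myoblast fusion, with 0 and 272, and six1b with 5 and 101. myod1 and six1b passed the filter without replicate 2.

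Other lists contributed less. From the calcium release and triad genes 5 of 16 tested genes were among the 130, although the 4 with the highest means, srl, sypl2a, casq1b and ryr1b, were not. Of these 16 genes, 3 passed the filter only through replicate 2, and of the 13 that passed without it 2 were among the 130. pvalb7, another parvalbumin, had 12 and 219. None of 15 energy genes, 15 ventricular cardiomyocyte markers, 6 skin markers, 5 outflow tract smooth muscle markers, 5 other myosin light chain kinases, 7 red blood cell markers, 3 cartilage and bone markers or 2 liver markers was among them. Since 0.781% of all tested genes were among the 130, none in lists this short says little about their tissues. The skin marker krt5 (named after its value was seen) had means of 170.5 in myd88+/+ and 76.5 in myd88-/- at 1 hpci, against 0.5 to 14 in the other conditions. krt4 was lower at 1 hpci than in UT ventricles, with means of 581 against 945 in myd88+/+ and 530 against 804.5 in myd88-/-. In all, 90 of the 130 genes belonged to none of the lists. Of these, atp2a1l, a close copy of atp2a1, had 1664 in replicate 2 against at most 20 in the other libraries (named after its value was seen). In replicate 1 of myd88+/+ at 1 hpci, the summed level of the 31 listed other fast genes was 6225 normalized counts, the highest of the remaining 11 libraries (2385 to 6225), against 19311 in replicate 2. Most of the 6225 came from myom2a (2692), acta1b (1433) and acta1a (1157), which were also high in UT ventricles. What tissue these transcripts came from was not tested.

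**Figure D3:**
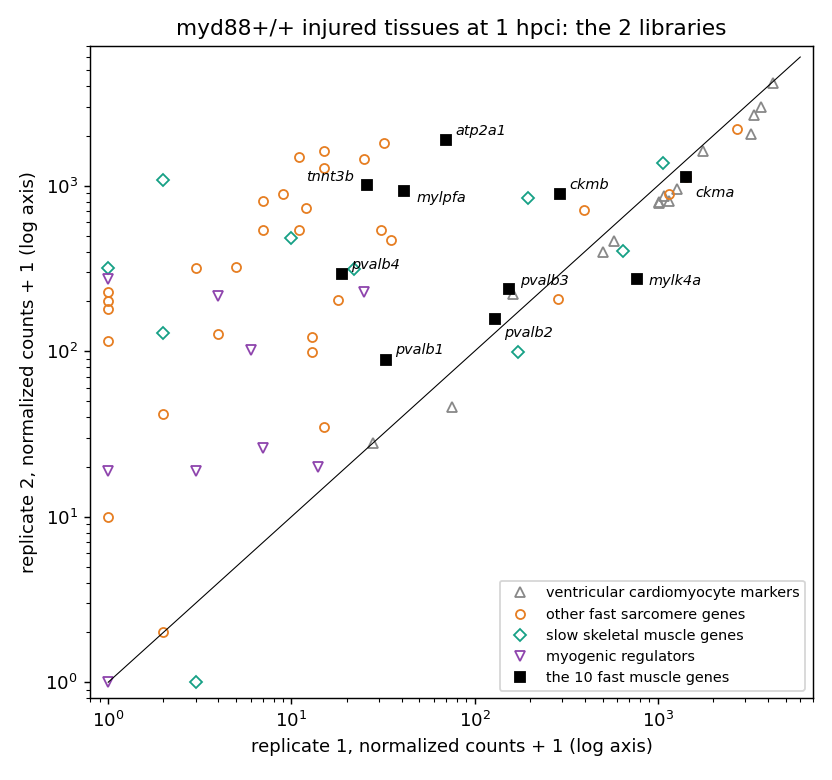
Normalized counts plus 1 in replicate 2 (vertical, log axis) against replicate 1 (horizontal, log axis) of injured myd88+/+ tissues at 1 hpci, with the line of equality; symbols mark the 10 genes and 4 gene lists. atp2a1, tnnt3b, mylpfa and pvalb4 lie far above the line with many of the other fast, slow and myogenic genes, some of which, such as acta1b and tnnc1b, lie near or below it, pvalb2, pvalb3, ckma and the cardiomyocyte markers lie closer to it, and mylk4a lies below it.

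The 10 genes therefore fell into several patterns within the myd88+/+ tissues at 1 hpci. pvalb2 and pvalb3 were high in both libraries, although pvalb3 in replicate 1 was 0.647 times as high as in replicate 2 (0.527 to 0.790). Of the other fast sarcomere genes, 12 of 27 were also above the other 10 libraries in both, against 1.89% of all tested genes. Of these 27, 14 passed the filter only through replicate 2. Most of the 12, such as myhz2, myhc4 and tnni2a.2, were among these 14, so that the filter largely sets this count. Those of the 12 that passed without replicate 2 were actn3b (24 and 1455), actn3a (34 and 471) and myom1a. Except for myom1a (395 and 714), the 12 genes had much lower levels in replicate 1. For mylpfa, 40 normalized counts accompanied 128 of pvalb2 in replicate 1, and 932 accompanied 156 in replicate 2, so that the ratio of these genes was not the same in the libraries. mylk4a was lower in the library where the sarcomere genes were high.

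Genes outside the lists whose log2(value + 1) followed pvalb2 most closely over the 12 libraries included robo1 (r = 0.95, rho = 0.90), fat2 (r = 0.90, rho = 0.88), mapk14b (r = 0.87, rho = 0.97) and phactr3b (r = 0.87, rho = 0.82). Without the libraries farthest from the median of pvalb2, which were both myd88+/+ libraries at 1 hpci, r was 0.74, 0.69, 0.84 and 0.62 in the same order. robo1, an axon guidance receptor, had 51 and 30 normalized counts in myd88-/- against 116 and 105 in myd88+/+ at 1 hpci and 25 to 45 elsewhere. These correlations describe 12 libraries of 6 conditions and carry no test.

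The genes that followed mylk4a were others. They were lrrc4.1 (r = 0.95, rho = 0.97), ppp2r3b (r = 0.94, rho = 0.90), igf1rb (r = 0.94, rho = 0.91), fhl2a (r = 0.94, rho = 0.90) and fzd7b (r = 0.93, rho = 0.85). Their r was 0.88 to 0.96 without the libraries farthest from the median of mylk4a. Those libraries were replicate 1 of myd88+/+ at 1 hpci and replicate 2 of myd88+/+ at 24 hpci. Replicate 2 of myd88+/+ at 1 hpci stayed in, unlike for pvalb2. Within the lists, tnnc1b had r = 0.96 and rho = 0.97 with mylk4a. tnnc1b, a troponin C on the slow muscle list, had 218 and 149 normalized counts in UT myd88-/- ventricles against 210 and 189 in UT myd88+/+ ventricles, 51 and 31 against 644 and 400 at 1 hpci, and 31 and 5 against 23 and 17 at 24 hpci. As for mylk4a, both myd88+/+ libraries at 1 hpci were the highest and replicate 1 exceeded replicate 2. fhl2a, a LIM domain protein of the heart, had 157 and 157 against 447 and 247 at 1 hpci.

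Of a list of 7 markers of atrial cardiomyocytes, chosen after values were seen, 6 were listed and 4 tested. Among these, myh6 and nr2f1a had the highest r with mylk4a. For both, unlike mylk4a, replicate 2 of myd88+/+ at 1 hpci lay below every UT library. myh6, the atrial myosin heavy chain of zebrafish, had 1276 and 913 normalized counts in UT myd88-/- ventricles against 1527 and 1210 in UT myd88+/+ ventricles, 117 and 88 against 3371 and 717 at 1 hpci, and 7 and 2 against 5 and 13 at 24 hpci. It was lower in the myd88-/- tissues at 1 hpci than in any UT library, and highest in replicate 1 of myd88+/+ at 1 hpci. Its r with mylk4a was 0.89 over the 12 libraries (rho = 0.83) and 0.92 without both myd88+/+ libraries at 1 hpci, and its r with pvalb2 was 0.61.

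nr2f1a, a transcription factor of atrial identity, had 27 and 19 normalized counts in myd88-/- against 179 and 63 in myd88+/+ at 1 hpci (r with mylk4a 0.79, rho = 0.78). The other atrial markers followed mylk4a less closely or not at all. kcnj5, a subunit of an atrial potassium channel, had 513 in replicate 1 of myd88+/+ at 1 hpci and at most 13 elsewhere (r = 0.63, rho = 0.47). nr2f2 did not follow, with 161 and 143 against 177 and 145 at 1 hpci (r = 0.01, rho = 0.11), and nr2f1b and kcnj3b, which were not tested, had at most 8 (r = 0.30 and -0.52). The summed level of the 6 listed genes was 310 and 255 in myd88-/- against 4246 and 929 in myd88+/+ at 1 hpci, and 1501 to 2176 in the UT libraries and 312 to 369 in the libraries at 24 hpci. The part of atrial tissue in the values of mylk4a was not tested.

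**Figure D4:**
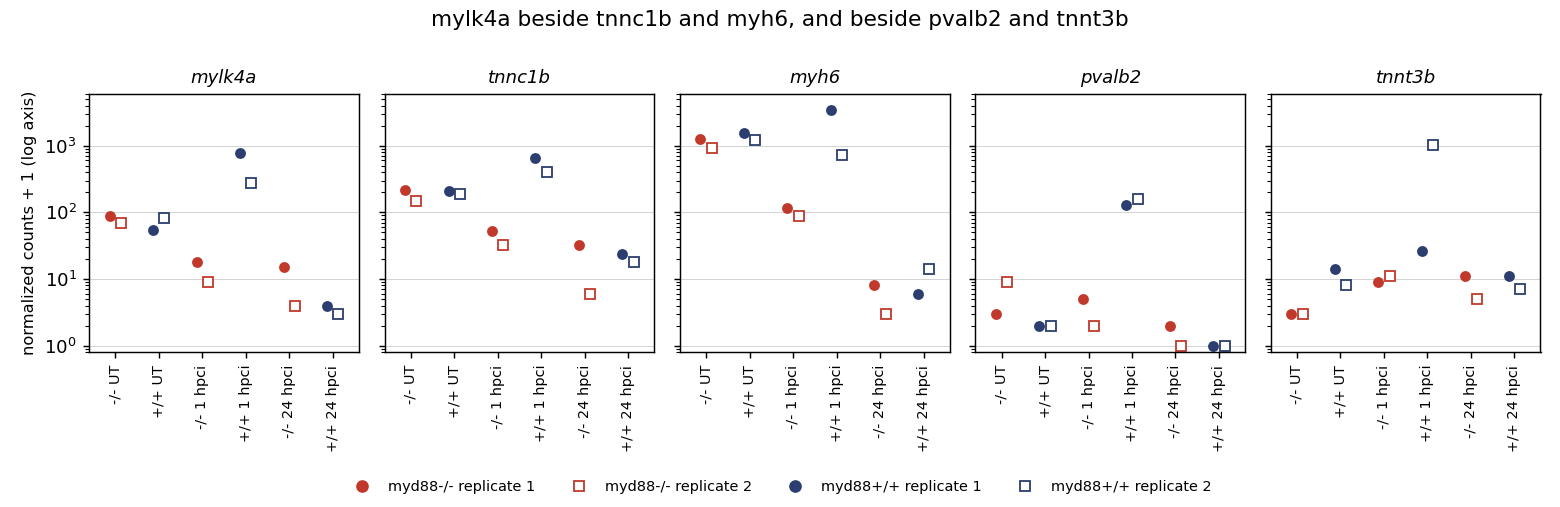
Normalized counts plus 1 (log axis) of mylk4a, tnnc1b, myh6, pvalb2 and tnnt3b in the 12 libraries; filled circles are replicate 1, open squares replicate 2, red myd88-/- and blue myd88+/+. mylk4a, tnnc1b and myh6 are highest in replicate 1 of myd88+/+ at 1 hpci and below the UT levels in myd88-/- at 1 hpci, whereas tnnt3b is at 25 in replicate 1 and 1009 in replicate 2 of myd88+/+ at 1 hpci.

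In 4 other members of the myosin light chain kinase family the genotypes overlapped at 1 hpci. The share of all genes for which they did was not counted. mylk3, the cardiac kinase, had 1531 and 1545 normalized counts in myd88-/- against 2044 and 1291 in myd88+/+ at 1 hpci, and mylk2, the skeletal muscle kinase, had 1748 and 1625 against 1998 and 1358. mylka, a smooth muscle type kinase, had 740 and 764 against 478 and 829, and mylk4b, the paralog of mylk4a, 449 and 133 against 444 and 412. As for mylk4a, replicate 1 of myd88+/+ at 1 hpci was the highest of the 12 libraries for mylk3 and mylk2.

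Comparisons between the other conditions were tested with limma on log2(value + 1) over all 16643 genes, with a spread estimated over all 12 libraries, including the myd88+/+ libraries at 1 hpci that chose the genes. Without these 2 libraries the counts of calls among the 10 genes were the same, except for 3 in place of 2 between 1 and 24 hpci in myd88-/-. A call needed a change of 1.5-fold up or down together with an adjusted p (Benjamini-Hochberg) under 0.05. In injured tissues at 24 hpci against UT ventricles, pvalb3, ckmb, atp2a1 and mylk4a fell in both genotypes. In myd88-/- these were 4 of the 10 genes, where 30.1% of all genes were called and 14.5% were called lower. In myd88+/+ they were 4 of the 10, where 39.9% of all genes were called and 20.9% were called lower. The remaining 6 genes were not called in either genotype, and of these pvalb1, pvalb2, pvalb4, mylpfa and tnnt3b had at most 13 normalized counts in any of the 8 libraries compared.

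The log2 fold change of mylk4a was -3.35 ± 0.67 (SE) in myd88-/- (limma adjusted p = 0.0043) and -4.27 ± 0.67 in myd88+/+ (limma adjusted p = 0.00088). For ckmb it was -2.45 ± 0.49 in myd88-/- (adjusted p = 0.0042) and -1.55 ± 0.49 in myd88+/+ (adjusted p = 0.027). pvalb3 had -2.33 ± 0.46 in myd88-/- (adjusted p = 0.0041) and -1.71 ± 0.46 in myd88+/+ (adjusted p = 0.014), and atp2a1 had -3.56 ± 1.13 in myd88-/- (adjusted p = 0.036) and -4.01 ± 1.13 in myd88+/+ (adjusted p = 0.018). In each of these genes, all injured libraries at 24 hpci lay below all UT libraries of the same genotype. The share of all genes with such an order was not counted, so that the order adds nothing to the calls. The values of mylk4a, atp2a1 and pvalb3 at 24 hpci, 2 to 14, 3 to 8 and 3 to 6, were near the worth of a few reads, so that the sizes of their changes are imprecise. In myd88+/+ only mylk4a was still called when either UT library was left out. Without replicate 1 at 24 hpci the calls were mylk4a and ckma, both lower, and without replicate 2 they were pvalb3, atp2a1 and mylk4a, lower, and ckma, higher. In myd88-/- only pvalb3 and mylk4a were still called without replicate 2 at 24 hpci, and the call of atp2a1 was lost without any of the 6 myd88-/- libraries or either UT library of myd88+/+ (adjusted p 0.052 to 0.20).

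**Figure D5:**
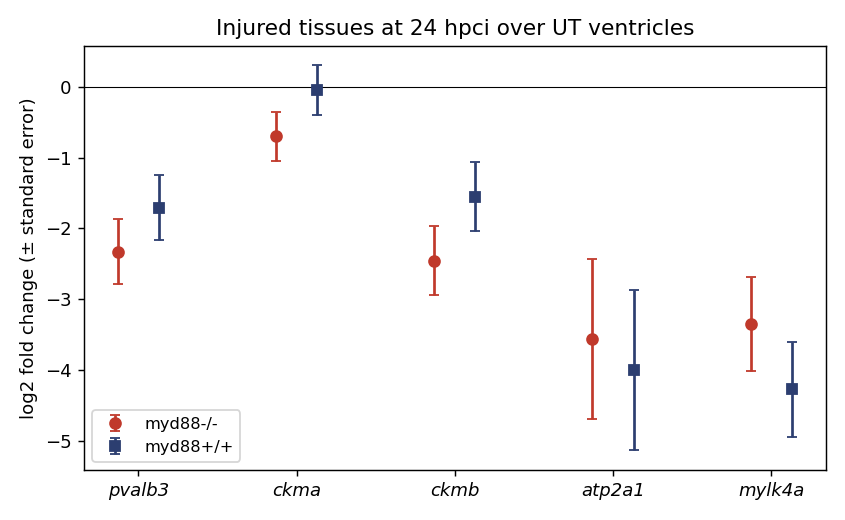
Log2 fold change on the log2(value + 1) scale of injured tissues at 24 hpci over UT ventricles for 5 of the 10 genes, red circles for myd88-/- and blue squares for myd88+/+, with bars for the standard error of the fit. pvalb3, ckmb, atp2a1 and mylk4a lie between -1.55 and -4.27 in both genotypes, and ckma lies at -0.70 and -0.04.

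Over the 10 genes the median log2 fold change at 24 hpci against UT was -1.29 in myd88-/- and -0.64 in myd88+/+, against -0.01 over all genes in each. These medians depend on pvalb1, pvalb2, pvalb4, mylpfa and tnnt3b, which had at most 13 normalized counts in the libraries compared, and do not describe a shared fall. Genes of several other muscle lists were called lower in the same comparisons. Over all genes, 14.5% were called lower in myd88-/- and 20.9% in myd88+/+. Of 15 energy genes, 11 in myd88-/- and 8 in myd88+/+ were called lower and none higher, for example pygmb, a glycogen phosphorylase, at -1.80 and -1.71. Of 16 calcium release and triad genes, 7 and 6 were called lower and 1 higher, with casq1b, a calcium buffer of the sarcoplasmic reticulum, at -1.40 and -1.06. Of 15 ventricular cardiomyocyte markers, 4 and 6 were called lower, and the list's summed level was 12064 and 10036 in myd88-/- and 22650 and 11144 in myd88+/+ at 24 hpci, against 22641 and 21751 and 24910 and 25460 in the UT ventricles. The 22650 came from replicate 1 of myd88+/+, the library with the lowest depth, and the part of depth in it was not tested. The other fast sarcomere list had 3 of 27 called lower in each genotype, a share below that of all genes. myom1a, at -2.07 and -3.15, and myom2a, at -1.43 and -0.83, were called in both. The part of a lower cardiomyocyte share in the change of pvalb3, ckmb, atp2a1 and mylk4a was not tested.

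At 1 hpci against UT in myd88-/-, mylk4a alone of the 10 genes was called, with a fall of 2.63 ± 0.67 (limma adjusted p = 0.032), where 10.4% of all genes were called and 4.55% were called lower. The myd88-/- libraries at 1 hpci, 17 and 8, did not overlap with the UT libraries, 88 and 69. The call was lost without any of these 4 libraries (adjusted p 0.052 to 0.24) and without replicate 2 of the UT myd88+/+ ventricles (adjusted p = 0.050). pvalb1 had an unadjusted p below 0.05 as well, which 25.9% of all genes had, but was not called, with 3 and 5 against 0 and 0. Between 1 and 24 hpci in myd88-/-, ckmb (-2.46 ± 0.49, adjusted p = 0.0033) and pvalb3 (-2.49 ± 0.46, adjusted p = 0.0023) fell, 2 of the 10 genes, where 34.3% of all genes were called and 16.3% were called lower. mylk4a had 14 and 3 at 24 hpci against 17 and 8 at 1 hpci and was not called.

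Between genotypes, none of the 10 genes was called in UT ventricles, where limma called 2.08% of all genes, or at 24 hpci, where it called 0.03%. In UT ventricles 1 gene had an unadjusted p below 0.05 (16.3% of all genes). This was pvalb3, with 22 and 45 in myd88-/- against 15 and 15 in myd88+/+ (1.02 ± 0.46, adjusted p = 0.30). None of the 10 did so at 24 hpci (0 of 10, against 5.13% of all genes). ckma came nearest at 24 hpci (-0.77 ± 0.35, adjusted p = 0.70), with 788 and 756 in myd88-/- against 2140 and 807 in myd88+/+, and it was called when replicate 2 of myd88+/+ was left out (adjusted p = 0.0018), which left the shallowest library to stand for the group. The difference between the genotypes in the change from UT to 24 hpci was called for 0 of the 10 genes (0 at an unadjusted p below 0.05, which 8.38% of all genes had), where 0.0481% of all genes were called. It was 0.92 ± 0.95 for mylk4a, -0.62 ± 0.65 for pvalb3, -0.90 ± 0.69 for ckmb and 0.44 ± 1.603 for atp2a1. In these 3 comparisons, pvalb1, pvalb2, pvalb4 and mylpfa had at most 8 normalized counts in UT ventricles and at most 6 at 24 hpci. They passed the filter only through the myd88+/+ libraries at 1 hpci and could hardly be called. The shares of the 10 genes are therefore not comparable with those of all genes.

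The 10 genes were also compared with each other over the 12 libraries. The median Pearson r of their 45 pairs was 0.69 (-0.13 to 0.95), and without both myd88+/+ libraries at 1 hpci it was 0.20 (-0.48 to 0.89). pvalb2 and pvalb3 had r = 0.93 (rho = 0.96), and 0.88 without these libraries. pvalb1 and pvalb4, at r = 0.95 (rho = 0.93), had 0.87 without them, although nearly all of those values were 0 to 5. For pvalb2 and tnnt3b, r was 0.70 (rho = 0.29) and -0.42 without them, and for mylk4a and tnnt3b 0.43 (rho = 0.27) and -0.32. mylk4a and atp2a1, at 0.80 (rho = 0.79), kept 0.89, and shared the fall at 24 hpci described above. ckma had r between -0.13 and 0.42 with the other 9 genes. As the libraries of a condition share their treatment, these values describe the table and carry no test.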

How the data were processed

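The table holds 12 bulk RNA-seq libraries in 6 conditions, grouped by their labels. According to the Methods and the submitters' processing notes, the authors made stranded mRNA libraries, trimmed (Trimmomatic 0.39) and aligned (STAR 2.7.3a, danRer11) the reads, removed duplicate, multimapping, ribosomal and mitochondrial reads (Picard 2.21.7), counted exon reads with featureCounts 1.6.5, leaving out reads that overlapped several genes, and normalized with DESeq2 1.26.0. The strand setting of the counting is not given in the sources used here. What the authors deposited is a score, read counts scaled by each library's size factor and then rounded, so no count model was fitted. Removing duplicates without molecular identifiers caps short, highly expressed genes. Levels were not compared between genes, since gene lengths were not used.

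Genes with a mean above 5 (16643 of 22736) entered a linear model of log2(value + 1) with a mean for each of 6 conditions (limma 3.58.1, R 4.3.3, trended eBayes), which left 6 residual degrees of freedom. This scale understates changes of low genes. Every p is adjusted over all tested genes, unless it is called unadjusted. The script was tested on simulated data. Each library is a pool, and p-values measure the spread between pools. The worth of 1 read was estimated from the steps between low values, and intervals are exact binomial intervals (Clopper-Pearson, scipy 1.17.1) at 95%. Figures were drawn with matplotlib 3.10.9.

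The 10 genes, the lists and the tests were chosen with earlier results of these data known. Named genes were the 10 genes, of each list up to 4 genes with the highest mean (8 for the other fast sarcomere genes), and the 5 genes outside the lists most like pvalb2 and mylk4a, of which 1 is not reported here. The definition of genes that stand apart in a library and the atrial and photoreceptor lists were added after values were seen. Alternatives were pseudocounts of 0.5 and 5, no filter or a mean above 20, TMM factors, eBayes without trend, fewer groups, the replicate number as a block and each library left out.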

Additional observations from a re-analysis of the deposited data

Results flagged for a closer look

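For mylk4a, the change between 1 hpci and UT had opposite signs in the genotypes. The log2 fold change was -2.63 in myd88-/- tissues, with 17 and 8 normalized counts at 1 hpci against 88 and 69 in UT ventricles, and 2.78 in myd88+/+ tissues, with 772 and 272 against 53 and 82. Every library at 1 hpci lay on the same side of the UT libraries of its genotype. No p-value is given for the difference between the genotypes, because the myd88+/+ libraries at 1 hpci chose the gene. myh6 had the same signs in myd88-/- (117 and 88 at 1 hpci against 1276 and 913 in UT ventricles), but in myd88+/+ only replicate 1 lay above UT (3371 and 717 against 1527 and 1210).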

How the results depend on the processing

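Of 120 counts of calls and medians over the 10 genes with a library left out, 104 stayed within 1.5 times (counts) or within the median standard error of the 10 genes (medians). The calls ranged from 1 to 4 for 24 hpci against UT in myd88+/+, 2 to 5 in myd88-/-, 0 to 1 for 1 hpci against UT in myd88-/-, and 0 to 1 for the genotypes at 24 hpci and for their difference in the change from UT. For 1 hpci against UT in myd88-/- the count was 0 without a trend in eBayes and 2 with only the groups compared, and for 24 against 1 hpci in myd88-/- it was 4 with only the groups compared. The labels do not say that replicate numbers pair the pools. Correlations of deviations between conditions were 0.17 to 0.28 within myd88-/-, 0.01 to 0.28 within myd88+/+ and -0.35 to -0.02 between genotypes. The replicate block changed no count, with 4 calls at 24 hpci against UT in each genotype, and neither did a block within each genotype, which was added after seeing the data.

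The sign of a log2 fold change reversed in 14 of 420 omissions of a library for pvalb3, ckma, ckmb, atp2a1 and mylk4a. The ranges were -0.073 to 0.55 for mylk4a between genotypes in UT ventricles, -0.67 to 0.50 for atp2a1 between genotypes at 24 hpci, -0.74 to 0.66 for ckma in myd88+/+ at 24 hpci against UT, -1.67 to 0.24 for mylk4a in myd88-/- at 24 against 1 hpci, and, in myd88-/- at 1 hpci against UT, -0.33 to 0.67 for pvalb3, -0.076 to 0.12 for ckma and -0.23 to 0.25 for ckmb. For the difference between genotypes in the change at 24 hpci they were -1.36 to 0.045 for ckma, -0.14 to 1.03 for atp2a1 and -0.030 to 1.88 for mylk4a. The cause was not tested.

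The median log2 fold change of the 10 genes at 1 hpci was -3.75 for myd88-/- against myd88+/+ (-5.03 to -2.27 when a library was left out, -3.96 with values raised to the worth of 3 reads) and 3.76 for myd88+/+ against UT (3.40 to 5.30, and 3.87). For myd88+/+ at 24 against 1 hpci it was -5.03 (-6.49 to -3.79, -4.11 with a pseudocount of 5, and -4.66 with values raised). These medians use the myd88+/+ libraries at 1 hpci that chose the genes, so they are descriptions and carry no test. Of the 10 genes, 4 passed the filter on low values only through those libraries. The median r of the 45 pairs was 0.31 without the 2 libraries farthest from the median and 0.34 for deviations from condition means. With 2-fold in place of 4-fold, replicate 2 of myd88+/+ at 1 hpci held 220 genes that stood apart, with 8-fold 88, and with 1 in place of 5 added 134, all chosen after seeing the data. Depth limits pvalb1, pvalb2, pvalb4 and mylpfa outside these libraries, and replicate 1 of myd88+/+ at 24 hpci most of all.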

Other observations

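Replicate 2 of myd88-/- at 1 hpci was high in photoreceptor genes. Photoreceptor genes, a list of 15 genes written after values were seen, had a summed level of 2602 normalized counts in this library, 225 in replicate 1 of myd88+/+ at 1 hpci, and 20 to 44 in the other 10 libraries, and 14 of the 15 were among its 18 genes that stood apart. Genes such as arr3a (174 there, at most 7 elsewhere) and rom1a (84, at most 1) passed the filter on low values only through this library. The filter therefore in part sets the 14 of 15. rho, the light-sensing pigment of rods, had 0 and 792 in myd88-/- against 92 and 0 in myd88+/+ at 1 hpci and was at 0 in the other 8 libraries, as was gnat1, the rod transducin, with 0 and 316 against 23 and 0. None of the 10 fast muscle genes was among the 18 of 16643 tested genes that stood apart in replicate 2 of myd88-/- at 1 hpci, so few that this says little.

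Replicate 1 of myd88+/+ at 1 hpci, the highest library for mylk4a, had 20 genes that stood apart, among them kcnj5 (513 normalized counts, at most 13 elsewhere), meis2a (269, at most 18) and trib1 (580, at most 68), named after their values were seen. None of the 10 fast muscle genes was among these 20 of 16643 tested genes, so few that this says little about the 10.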
